A study of Caenorhabditis elegans with 3 samples.

Results

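Of the 4705 consensus clusters of RNA crosslinked to DCR-1, the only Dicer protein in the worm Caenorhabditis elegans, 324 lay antisense to annotated genes. A cluster is a stretch of overlapping reads with T-to-C conversions, the mark that PAR-CLIP leaves where 4-thiouridine in RNA was crosslinked to protein. The clusters were chosen from the annotation alone, as nuclear clusters that the authors' annotation calls antisense and to which it gives no gene, coding transcript or noncoding RNA on their own strand. By the same rule, 174 of the 2508 clusters of the stricter conservative list were antisense, and the rule found 30 of the 399 clusters of T1/V1 replicate 1, 27 of the 377 listed for T1/V1 replicate 2 and 98 among 1304 for T1 replicate 3. The name was not met by every cluster. On the other strand, 192 consensus clusters faced an exon and 78 faced an intron with no exon, while 54 faced no gene body and had only the flank of a gene there, within 1000 bases.

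All 3 libraries came from whole young adult worms of the FLAG:DCR-1 strain, a rescue strain that expresses FLAG-tagged DCR-1, labelled with 4-thiouridine and irradiated with UV light. Replicates 1 and 2 are labelled RNase T1 with RNase V1, an enzyme that cuts base-paired RNA, and carried a custom adapter, whereas replicate 3 is labelled RNase T1 alone and carried the default adapter. The series' design text names both enzymes for the experiment, and nuclease and adapter cannot be told apart. No untagged or unirradiated control library was analysed here, and whether separate worm cultures were used is not stated, so differences between libraries may be technical.

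Dicer cuts double-stranded RNA, and an antisense transcript can pair with the transcript of the gene it faces. In worms, DCR-1 takes part in making primary siRNAs antisense to mRNAs, including those bound by the Argonaute ERGO-1, and RNA-dependent RNA polymerases can supply the second strand. Introns and gene flanks can also hold small structured RNA genes, such as miRNA and snoRNA genes, on either strand. None of this was measured here, and a cluster shows contact with DCR-1 rather than cleavage.

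The antisense clusters made up 6.89% of consensus clusters (exact 95% interval 6.18 to 7.65%) and 6.49% of the reads in them, with 5968 of 92004 reads. Intervals were computed by the exact Clopper-Pearson method at the 95% level, and counting error is all they cover. T1/V1 replicate 1 had a share of 7.52% of clusters (5.13 to 10.6%) and T1/V1 replicate 2 one of 7.16% (4.77 to 10.2%). In T1 replicate 3 it was 7.52% (6.14 to 9.08%). The T1/V1 mean was 7.34% ± 0.252 (SD, n = 2), and the single T1 library lay within the interval of each. Clusters opposite a gene body alone were 270, or 5.74% of the consensus list. The libraries held 7829, 10834 and 24992 reads in clusters, of which 376, 603 and 1310 were antisense.

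Most antisense clusters were small, and a few held much of the signal. The median consensus cluster had 4 reads, with quartiles of 3 and 7, and 80 of the 324 had only 2 reads. Its median length was 40 nt, within a range of 22 to 215 nt. The 3 leading clusters held 2021 reads, or 33.9% of all antisense reads, and the 12 leading ones held 58.1%. Clusters opposite exons had a median of 3 reads, those opposite introns 4 and those opposite flanks 5, and the largest cluster in each had 660, 718 and 170 reads. Introns faced 24.1% of the clusters but 37.7% of the reads, with 2249 reads against 2635 opposite exons and 1084 opposite flanks.

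**Figure D1:**
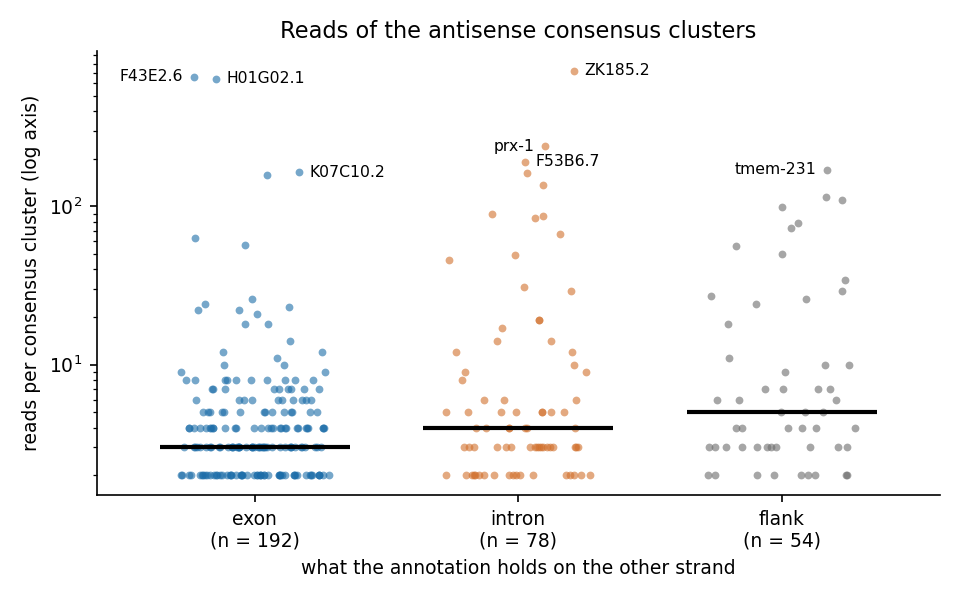
Reads of each antisense consensus cluster (log axis), grouped by what the annotation holds on the other strand; each point is 1 cluster and the bars are the medians of 3, 4 and 5 reads. The 7 clusters with most reads carry the name of the opposite gene, and ZK185.2, F43E2.6 and H01G02.1 stand above all others with 718, 660 and 643 reads.

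Among clusters opposite introns, the one with most reads faced ZK185.2, a protein-coding gene, on chromosome IV at 4538697 to 4538911 on the minus strand. It held 718 reads and 334 conversions over 215 nt. It was listed in every library, where T1/V1 replicates 1 and 2 had 30 and 74 reads and T1 replicate 3 had 150. In the RefSeq gene table of the later assembly WBcel235, which gives no strand, the span of ZK185.2 holds a snoRNA gene, ZK185.9, of 215 bases. Coordinates here are those of the authors' lists, and their genome build could not be taken from any source used, so cluster and snoRNA gene were compared by length and host gene and not by position.

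The intron of F53B6.7 faced a cluster of 191 reads on chromosome I at 8949089 to 8949136, with 57, 69 and 108 reads in the 3 libraries. Only 10 conversions were counted in it, and the annotation puts a low-complexity AT-rich repeat on the other strand. The same intron holds a tRNA gene on the gene's own strand, F53B6.t1, whose cluster of 1247 reads lay elsewhere in the intron. The intron of prx-1, whose product acts in peroxisome biogenesis, faced 240 reads and 230 conversions over 78 nt on the X chromosome. No library list held that cluster, although the authors count reads for it from all 3 libraries. In the RefSeq table the span of prx-1 holds a miRNA gene, mir-8196.2, and that of F53B6.7 a noncoding RNA gene, F53B6.11.

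Other introns faced fewer reads. The cluster opposite B0273.1 had 162 reads and 80 conversions over 44 nt, and library clusters of 4 reads (T1/V1 replicate 1) and 9 reads (T1 replicate 3) lay there. The cluster opposite gfrl-1 had 136 reads and 138 conversions over 34 nt. The intron of klp-6, which encodes a kinesin, faced 85 reads with 8 conversions, and a library cluster was listed there in T1/V1 replicate 2 (44 reads) and T1 replicate 3 (46 reads). B0361.11 carried an antisense cluster of 67 reads and 45 conversions over 64 nt. In the same intron, on the gene's strand, the authors' annotation places mir-2214 under a separate cluster of 145 reads. The antisense cluster is thus not the annotated miRNA. In the RefSeq table the span of gfrl-1 holds a snRNA gene, Y69A2AR.36, and that of klp-6 the noncoding RNA gene srpr-2.2. The span of B0273.1 holds the noncoding RNA gene B0273.111, and that of B0361.11 holds B0361.13, of 63 bases.

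Opposite exons, 2 clusters stood far above the rest. F43E2.6 faced 660 reads and 523 conversions over 72 nt on chromosome II at 7367505 to 7367576. H01G02.1 faced 643 reads and 138 conversions over 32 nt on chromosome IV at 11803551 to 11803582. The libraries listed these clusters with few reads or not at all. For F43E2.6 they gave 6, 4 and 14 reads, and for H01G02.1 T1 replicate 3 alone gave a cluster, of 67 reads. The pooled list therefore holds many more reads there than the library lists together, and how reads were pooled was not stated in any source used.

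The next exonic clusters were smaller. One faced K07C10.2, itself annotated as a snoRNA gene, with 164 reads over 90 nt but only 6 conversions. Its library clusters had 46, 55 and 87 reads. Another faced spat-2, with 157 reads and 146 conversions over 45 nt, and was in no library list. A cluster of 57 reads faced rrn-4.3, a ribosomal RNA gene, together with the pseudogene ZK218.8, and was listed with 11, 15 and 39 reads. No other cluster lay opposite an annotated ribosomal RNA gene.

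Of the 54 clusters with only a flank opposite, 47 faced the downstream flank of a gene and 7 faced both a downstream flank and a promoter. The leading one lay beside tmem-231, which encodes a protein of the ciliary transition zone, with 170 reads and 7 conversions over 103 nt. It was listed with 68, 64 and 137 reads in the 3 libraries. Another lay beside alh-3, a gene of the aldehyde dehydrogenase family, with 110 reads and 51 conversions. The flank of ZC155.4 held a pair of clusters, of 99 and 34 reads with 1 conversion each. The RefSeq table places the noncoding RNA gene srpr-2.1 within 1000 bases of ZC155.4, a snoRNA gene, T26A8.6, within the same distance of tmem-231, and a ribosomal RNA gene, rrn-4.15, near T27C5.10, whose flank faced a cluster of 50 reads.

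RNA genes of this kind, not named anywhere in the authors' lists, were tallied for all clusters. For 317 clusters the opposite or flanking gene was matched to the table. A miRNA, snoRNA, snRNA, tRNA, rRNA or scRNA gene lay within the span of the opposite gene for 13 of 76 clusters opposite introns (17.1%, interval 9.43 to 27.5%). For clusters opposite exons it was 6 of 189 (3.17%, interval 1.17 to 6.78%). Beside the flank clusters it was 5 of 52. Of the protein-coding genes with a sense cluster, 101 of 2307 (4.38%, interval 3.58 to 5.29%) held such a gene. That share counts genes, whereas the others count clusters. A gene could also enter this set through a sense cluster on an RNA gene inside it, as F53B6.7 did. The share is therefore not a neutral reference, and none was computed over all protein-coding genes. With any RNA gene other than piRNA genes counted, it was 34 of 76 opposite introns (44.7%) and 41 of 189 opposite exons (21.7%). Beside flanks it was 24 of 52 (46.2%), and for genes with a sense cluster 414 of 2307 (17.9%). For the 25 clusters with most reads it was 14 (56%), against 85 of the 292 other matched clusters (29.1%), with no test made. Genes with an intronic cluster were longer, with a median span of 6087 bases against 3499 for exonic ones, and the part of this in the difference was not tested. Lying in the same gene does not place the RNA gene under the cluster.

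Conversions set the leading clusters apart from one another. Among the 58 antisense clusters of at least 10 reads, conversions per 100 reads ran from 1.01 to 213 with a median of 29.6, since a read can carry more than 1 conversion. The 504 clusters of that depth on coding exons had a lower quartile of 13.0 and an upper quartile of 73.3, against 9.76 and 79.8 for the antisense ones. Of the 58, 15 (25.9%) had fewer than 10 conversions per 100 reads, against 91 of the 504 on coding exons (18.1%). Among the 15 were the clusters of F53B6.7, tmem-231, K07C10.2 and ZC155.4. Of the 12 leading clusters, those opposite prx-1, spat-2 and gfrl-1 had 95.8, 93.0 and 101 conversions per 100 reads. Conversions were seen in at least 2 libraries for 199 of the 324 clusters (61.4%), against 1692 of 3361 clusters on coding exons (50.3%). Reads were seen in all 3 libraries for 121 antisense clusters (37.3%), against 1485 on coding exons (44.2%).

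Compared with clusters on coding exons in the same library, the antisense clusters differed in size with no one direction of length. For T1/V1 replicate 1 the median length was 37 nt against 41, for T1/V1 replicate 2 it was 47 against 45, and for T1 replicate 3 it was 41.5 against 51. The mean difference was -3.83 nt, with an exact two-sided sign-flip p of 0.5 over the 3 libraries. Their median reads were 5 against 2, 7 against 3 and 3 against 3, again with an exact p of 0.5. Conversions per 100 edits, where an edit is any mismatch, had medians of 50 against 55.6, 31.8 against 50 and 50 against 50, with an exact p of 0.5. In the pooled consensus list the medians were 40 against 49 nt, 4 against 4 reads and 60 against 50 conversions per 100 edits, so that conversions per edit lay the other way round from the T1/V1 libraries. In the conservative list they were 66.7 against 60 conversions per 100 edits. With 3 libraries this exact test cannot go below p = 0.25.

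Very short clusters were a larger share of the antisense set. Clusters of 22 to 27 nt were 54 of 324 antisense clusters (16.7%, interval 12.8 to 21.2%) and 223 of 3361 on coding exons (6.63%, interval 5.82 to 7.53%). The antisense share was also the higher one in each library, at 10% against 5.98% for T1/V1 replicate 1, 14.8% against 3.45% for T1/V1 replicate 2, and 17.3% against 3.14% for T1 replicate 3. The intervals overlapped in both T1/V1 libraries and in the conservative list, which had 13.2% (8.57 to 19.2%) against 7.41% (6.19 to 8.78%), and did not in T1 replicate 3. This length range was chosen after the lengths were seen, and no test was made. Sense clusters in introns had a share of 23.1% in the consensus list, so short length was not particular to antisense clusters. Together the 54 short clusters held 179 reads. UNIQ40_K0, the most frequent of the authors' mapping labels, was given to 68.2% of all antisense consensus clusters and to 75.7% of the other nuclear ones. The part of mapping in the share of short clusters was not tested.

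**Figure D2:**
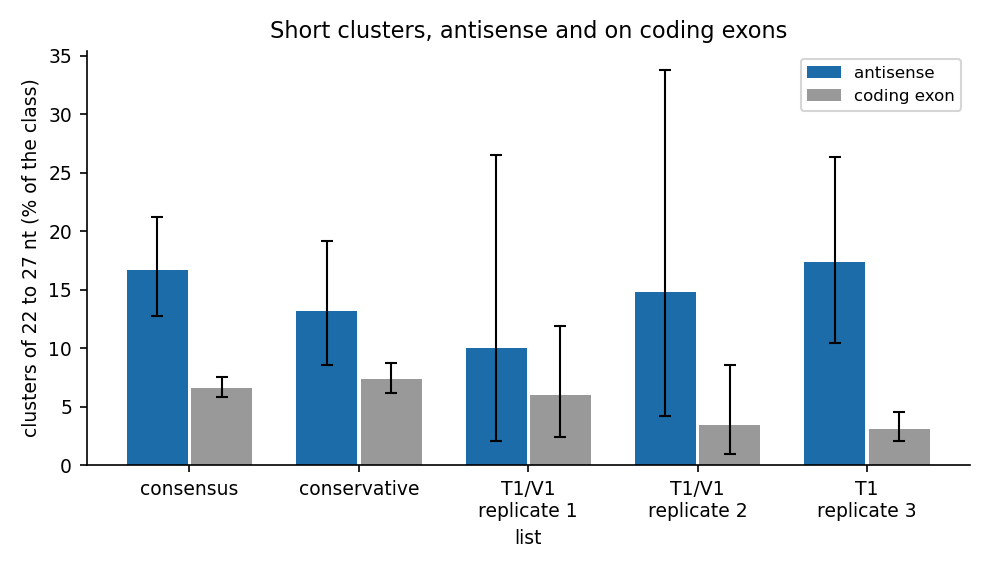
Share of clusters of 22 to 27 nt among antisense clusters and clusters on coding exons, in each list; bars are percentages of the class and whiskers exact 95% binomial intervals for counting error. The antisense bar is the taller one in all 5 lists, at 16.7% against 6.63% in the consensus list.

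Known sources of ERGO-1-class siRNAs were among the genes that faced short clusters. A list of 15 such genes was drawn up from general knowledge, with earlier results of these data known. Of these, 3 (20%) faced antisense clusters, 6 clusters in all with 28 reads. Of all protein-coding genes 1.12% faced one, but F39E9.7 and C40A11.10 are not counted among those genes. The shares therefore have unlike bases, and no test was made. On their own strand, 6 of the 15 genes had clusters. F39E9.7, a pseudogene, faced clusters of 10 and 3 reads, each 25 nt long, and had 11 sense reads. K02E2.6 faced clusters of 7 and 2 reads, of 25 and 22 nt, and had 9 sense reads. C40A11.10, a gene that the lists annotate as coding, faced clusters of 4 and 2 reads, each 26 nt long, and had 3 sense reads. These 6 consensus clusters thus lay between 22 and 26 nt, against a median of 40 nt for all antisense consensus clusters. None of the 6 overlapped a library cluster, but T1 replicate 3 listed another antisense cluster opposite K02E2.6, of 2 reads and 31 nt. Longer clusters also lay at other genes of the list. Y37E11B.2 had a consensus cluster of 2 reads and 30 nt opposite its flank only. T1/V1 replicate 1 listed a cluster of 2 reads and 38 nt opposite an exon of W05H12.2.

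The gene that faced the most antisense clusters was dcr-1 itself. It faced 13 clusters, 11 over exons and 2 over introns, with 69 reads and 49 conversions. The strain expresses tagged DCR-1 as a rescue, and reads from a transgene and from the chromosomal dcr-1 gene cannot be told apart in these lists. The clusters had 2 to 18 reads and were spread over 7529 bases of the gene. The largest, of 18 reads over 107 nt at 8079468 to 8079574 on chromosome III, spanned an exon and an intron. On the gene's own strand there were 8 clusters with 35 reads and 20 conversions.

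Among the 13 antisense clusters of dcr-1, 5 ran over an exon and an intron. Conversions came from at least 2 libraries for 7 of the 13, and reads from all 3 libraries for 2. In 2 places a cluster on the gene's strand overlapped an antisense one, with 2 reads on each strand in both. In the single libraries, 1 antisense cluster was listed, with 3 reads and in T1 replicate 3, which also listed 2 sense clusters of 3 and 4 reads. T1/V1 replicates 1 and 2 listed no cluster on either strand of dcr-1. In a list of small RNA pathway genes, dcr-1 was the 1 of 43 matched genes (2.33%) that faced an antisense cluster, beside 1.12% of all protein-coding genes, and 14 of the 43, dcr-1 included, had sense clusters.

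**Figure D3:**
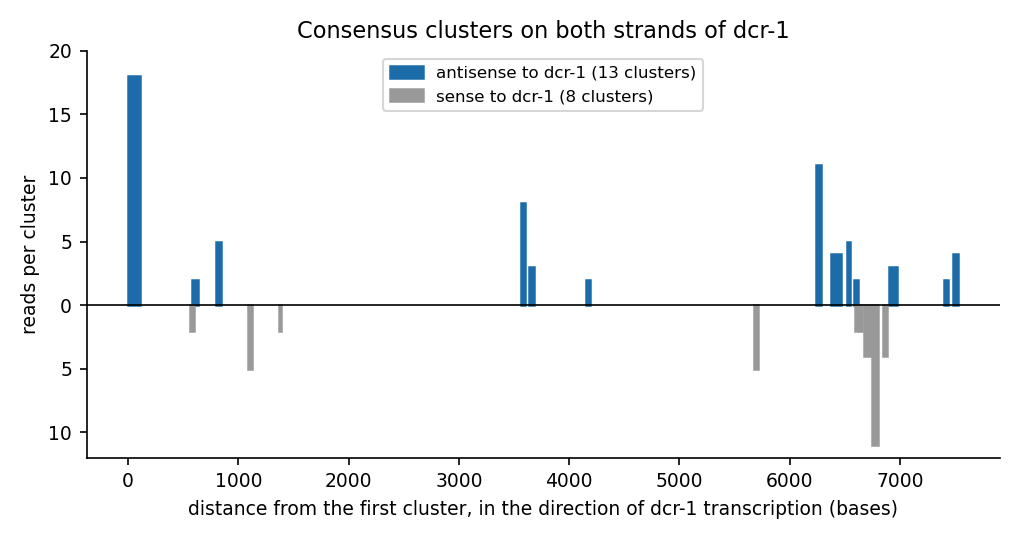
Consensus clusters on both strands of dcr-1; bars show reads per cluster, upward for the 13 antisense clusters and downward for the 8 sense clusters, at their distance in bases from the first cluster in the direction of transcription. Bar width is cluster length, and the tallest antisense bar has 18 reads and the deepest sense bar 11.

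Few other genes faced more than 1 cluster. Of 237 named genes opposite a cluster, 220 faced 1, 12 faced 2 and 5 faced 3 or more. The 237 include ZK218.8, of which the annotation holds no gene body opposite the cluster. For 264 of the 270 clusters with a gene body opposite, the gene was matched to the RefSeq table. After dcr-1, a set of 3 clusters with 15 reads faced unc-54, a muscle myosin heavy chain gene, and aex-5, which overlaps it in the authors' annotation. The origin recognition gene orc-2 faced 3 clusters with 12 reads, and rab-3, which encodes a synaptic vesicle GTPase, faced 3 clusters with 7 reads, all in its introns. The talin gene tln-1 faced 2 clusters with 11 reads.

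Genes that faced an antisense cluster often had a cluster on their own strand. Of 224 protein-coding genes opposite a cluster, 73 had a cluster on their own strand (32.6%, interval 26.5 to 39.2%), while 2307 of all 19983 protein-coding genes in the table did (11.5%). Gene length and expression were not matched in these shares, and their part in the difference was not tested. A cluster on an RNA gene inside a gene was counted for that gene. For F53B6.7 the 1 sense cluster, of 1247 reads, was that of the tRNA gene. How many of the 73 and 2307 genes entered only in this way was not counted. For unc-54 there were 22 sense clusters with 207 reads beside the 15 antisense reads. F43E2.6 had 1 sense cluster, of 101 reads, and ZK185.2, H01G02.1, prx-1 and spat-2 had none.

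Over all protein-coding genes, 224 of 19983 (1.12%) faced an antisense cluster, and the same count was made for gene groups. Of 78 ribosomal protein genes, 71 had a sense cluster, and 1 (1.28%), rps-11, faced an antisense cluster, of 2 reads. Of 22 muscle sarcomere genes, 18 had a sense cluster and 2 (9.09%) faced antisense clusters, unc-54 and myo-3, the latter with 18 reads and 21 conversions over 43 nt. Of 156 collagen genes, 34 had a sense cluster and 1, col-87, faced an antisense one, of 3 reads. Of 72 histone genes, 12 had a sense cluster and 1, the linker histone gene his-24, faced an antisense one, of 5 reads. None of the 6 vitellogenin genes faced an antisense cluster, although 4 had sense clusters. No annotated miRNA, tRNA or snRNA gene lay opposite a cluster. For this count C40A11.10 was kept as coding, as in the authors' lists, and was not counted as a miRNA gene by its RefSeq entry.

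Overlap with a cluster on the other strand was uncommon. Of the 324 antisense clusters, 21 (6.48%, interval 4.06 to 9.74%) overlapped one by at least 1 base. These were 16 of 192 opposite exons, 0 of 78 opposite introns, which allows a share of up to 4.62%, and 5 of 54 opposite flanks. The overlapping cluster was on a coding exon in 14 pairs, on a noncoding RNA in 2 and elsewhere in 5. The antisense cluster had more reads in 11 pairs, the other one in 7, and 3 were equal. Counted from the other side, 14 of 3361 coding exon clusters lay in such a pair, but these are the same pairs.

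The F43E2.6 pair was the deepest with more antisense than sense reads. The antisense cluster of 660 reads covered 7367505 to 7367576 and the sense cluster of 101 reads covered 7367506 to 7367575, so that each end differed by 1 base. Sense conversions numbered 59 against 523 antisense. In T1 replicate 3 both strands were also listed, with 14 antisense and 6 sense reads. It was the one exonic pair listed on both strands within a library.

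The flank of dnc-6, a dynactin subunit gene, held 114 reads on the antisense strand and 53 on the other, and the clusters shared 50 bases. A noncoding hairpin RNA described as an inhibitor of Dicer, rncs-1, showed the opposite balance. It faced antisense clusters of 21 and 4 reads where its own strand held clusters of 318 and 595 reads. The clusters opposite rncs-1 had 1 and 2 conversions.

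Smaller pairs showed few reads on each side. The flank of gro-1, which encodes a tRNA-modifying enzyme, held 27 antisense reads opposite 4. The nuclear hormone receptor gene nhr-130 faced 12 reads where its own strand had 4, and Y116F11A.1 likewise faced 12 where its strand had 4. The lectin gene lec-1 faced 7 reads opposite 5. At unc-54, 1 pair had 7 reads on each strand and the other had 5 antisense reads opposite 26. The clusters of C40A11.10, with 4 antisense and 3 sense reads, began at the same base and ended 1 base apart.

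**Figure D4:**
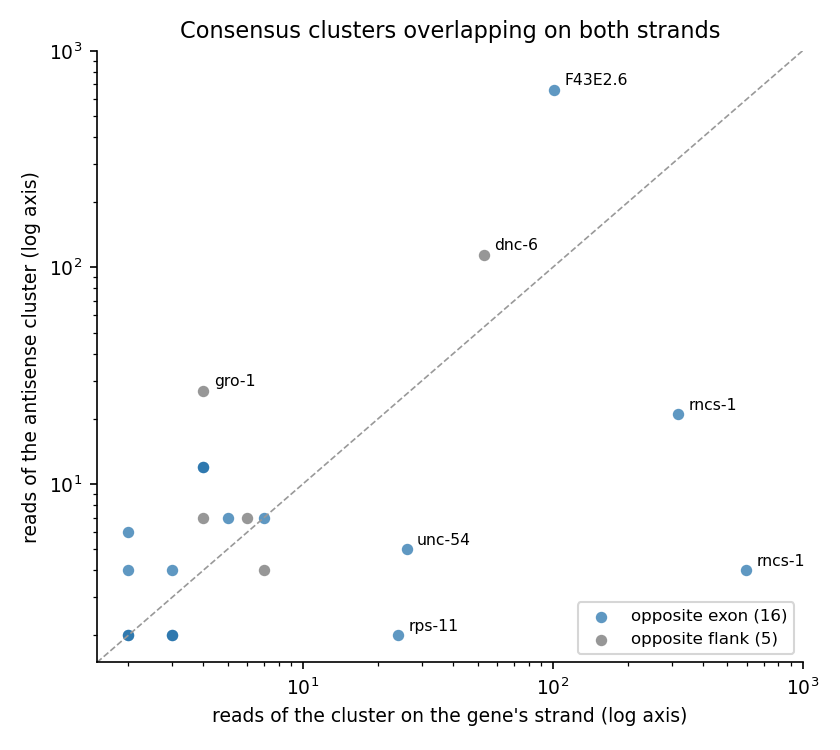
Reads of the 21 antisense consensus clusters that overlap a cluster on the other strand, against the reads of that cluster (both log axes); colours give what lies opposite and the dashed line marks equal reads. F43E2.6 and dnc-6 lie above the line with 660 and 114 antisense reads, and both rncs-1 clusters lie far below it.

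A repeat was annotated on either strand for 33 of 324 antisense clusters (10.2%, interval 7.12 to 14%) and for 177 of the 4274 other nuclear clusters (4.14%, interval 3.56 to 4.78%). The counts were 9 of 30 against 35 of 347 for T1/V1 replicate 1, 3 of 27 against 19 of 330 for T1/V1 replicate 2, and 6 of 98 against 38 of 1183 for T1 replicate 3. The antisense share was the higher one in each list, while the intervals overlapped in T1/V1 replicate 2, T1 replicate 3 and the conservative list, which had 9.77% (5.80 to 15.2%) against 5.19% (4.31 to 6.18%). The other clusters lie largely on exons, where few repeats lie, and the part of that in the difference was not tested.

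The repeats were of many kinds. Low-complexity sequence was the most frequent, with 9 clusters and 230 reads, of which 191 were those of F53B6.7. Simple repeats had 8 clusters and 31 reads, the largest of 7 reads opposite Y48B6A.10. A DNA transposon annotated on the cluster's own strand, in an intron of K02F3.2, accounted for 89 of the 96 reads of its class, with 2 conversions over 31 nt. A SINE annotated on the strand of the pseudogene E03A3.5 lay opposite a cluster of 46 reads and 32 conversions. The 39-nt antisense cluster in 1 dcr-1 intron lay on a Tc4 element, with 5 reads.

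Most antisense clusters rested on the pooled lists alone. Of the 324, 64 (19.8%, interval 15.6 to 24.5%) overlapped a cluster of a library list, 43 in 1 library, 13 in 2 and 8 in all 3. T1 replicate 3, the library with most clusters, accounted for 62 of the 64, and without it 23 were left. Recurrence followed reads, at 17 of 196 for clusters of 2 to 4 reads, 14 of 70 for 5 to 9 reads and 33 of 58 for 10 or more. On coding exons the matching figures were 139 of 1993, 178 of 864 and 246 of 504. Clusters opposite flanks recurred in at least 2 libraries in 9 of 54 cases, those opposite introns in 8 of 78 and those opposite exons in 4 of 192.

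**Figure D5:**
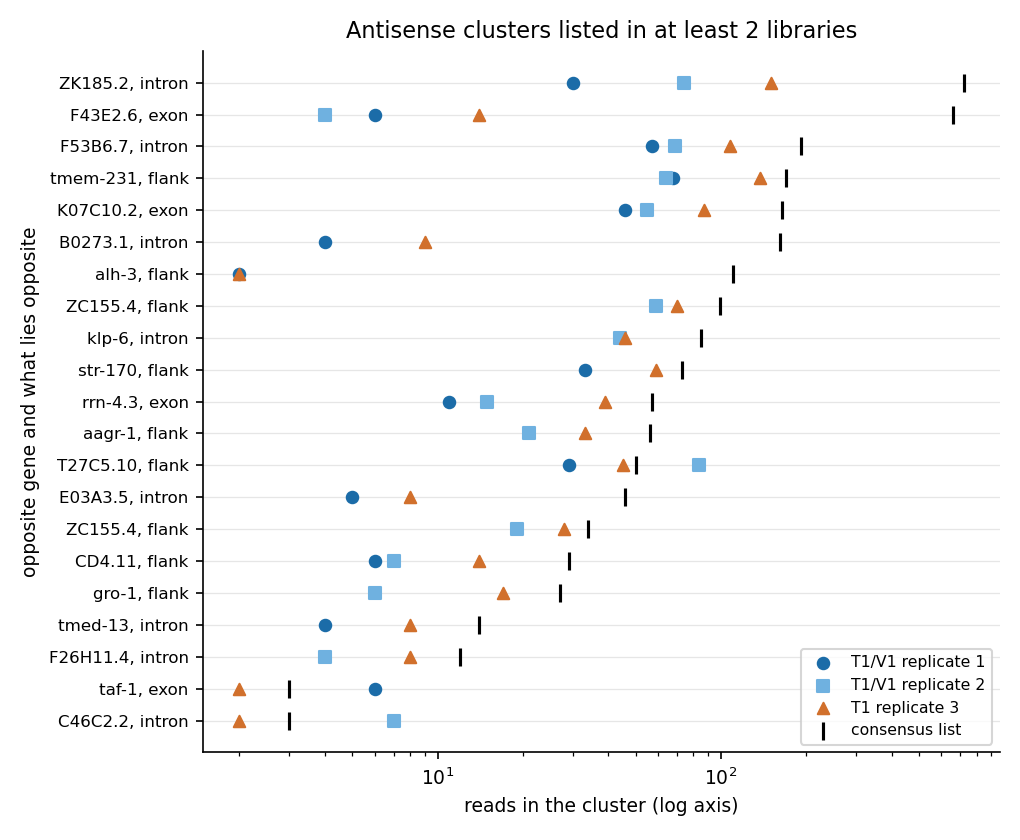
Reads (log axis) of the 21 antisense clusters that overlap clusters in at least 2 library lists, by library and in the consensus list; each row is 1 cluster, named for the opposite gene. The rows of F53B6.7, tmem-231 and K07C10.2 hold at least 46 reads in each library, whereas F43E2.6 holds 4 to 14 reads in the libraries and 660 in the consensus list.

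The 8 clusters found in all 3 libraries faced ZK185.2, F43E2.6, F53B6.7, K07C10.2, rrn-4.3 and the flanks of tmem-231, T27C5.10 and CD4.11. T1 replicate 3 gave the most reads in 7 of the 8, and it also held the most reads in clusters overall. Per 1000 cluster reads, the cluster beside tmem-231 held 8.69 and 5.91 in T1/V1 replicates 1 and 2, and 5.48 in the library labelled T1 alone. The cluster opposite rrn-4.3 varied least, at 1.41, 1.38 and 1.56. The cluster beside T27C5.10 varied most, at 3.70, 7.75 and 1.80, with a ratio of 4.31 between its highest and lowest library. Its 29, 84 and 45 library reads sum to more than the 50 reads of the consensus list, as was the case for 11 of the 64 recurring clusters, so pooled reads are not the sum of the library reads.

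Between pairs of libraries, 10 of the 30 antisense clusters of T1/V1 replicate 1 overlapped a cluster of T1/V1 replicate 2, and 15 overlapped one of T1 replicate 3. T1/V1 replicate 2 shared 10 of its 27 with replicate 1 and 16 with T1 replicate 3. T1 replicate 3 shared 15 of its 98 with replicate 1 and 16 with replicate 2. As a share of each list, overlap thus ran from 15.3% to 59.3%, and the lists are of unequal size. Of the library clusters, 14 of 30, 17 of 27 and 62 of 98 overlapped a consensus cluster, each of them an antisense one.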

How the data were processed

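DCR-1 PAR-CLIP was analysed from 3 library lists and 2 pooled lists of clusters, consensus and conservative. Per the file headers and attributes, each deposited cluster carries the authors' counts of T-to-C conversions, reads and edits, not normalised, and was called at an estimated false discovery rate of 5%. The submitters' processing notes name Bowtie2 2.1.0, while no source used here states the genome build or the annotation release. Consensus clusters have reads from at least 2 libraries, and conservative ones have conversions in at least 2. Pooled values have no SD, since no value per library is attached to them.

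Antisense clusters were selected by the annotation attributes. The clusters and gene lists were chosen with earlier results of these data known. An opposite exon took precedence over an intron, and 28 clusters had both. Overlap meant at least 1 shared base. Gene names, biotypes and nesting came from RefSeq WBcel235, except that C40A11.10 kept its name and coding annotation from the authors' lists. Of 321 clusters on named small RNA genes, 75 did not overlap the same gene's span there, so clusters were not placed by its coordinates, which served only for gene spans and for which genes neighbour or nest in each other. No sequence is shown, since no genome of the build was used here.

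Genes named were those opposite the 12 clusters with most reads, those in at least 2 library lists, up to 8 with a cluster on the other strand, 2 per repeat class, 6 per library and 3 per gene list, with examples beyond these chosen after their values were seen. Medians were compared over libraries by an exact sign-flip test. The overlap and sign-flip code was tested on simulated data. The software was Python 3.11.15 with SciPy 1.17.1, numpy 2.4.6, pandas 2.3.3 and matplotlib 3.10.9.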

Additional observations from a re-analysis of the deposited data

How the results depend on the processing

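Counting every nuclear cluster with the antisense annotation, whatever its own strand holds, raised the antisense share to 22.1% of the consensus list, to 28.6% on average in the T1/V1 libraries and to 24.7% in the T1 library. Clusters of at least 5 reads gave 6.09%, 6.96% and 5.76%. Clusters with a gene body opposite, an alternative chosen after seeing the data, gave 5.74%, 5.02% and 5.90%. The share opposite an exon, 59.3% as reported, was 50.6% with clusters over exon and intron counted as intron, 51.1% in the conservative list and 50.8% at 5 or more reads. The share with a repeat fell to 7.03% at 5 or more reads. The share with a cluster on the other strand rose to 10.5% when a distance of 100 nt was allowed and was 4.02% in the conservative list. Leaving out each T1/V1 library gave a T1/V1 share of 7.16 to 7.52%, and leaving out each library gave 23 to 64 recurring clusters, the lowest without T1 replicate 3. The other alternatives stayed within the interval of the reported share, or within 1.5 times the reported count. No paired analysis was possible because the groups share no replicate number. Most clusters hold under 5 reads, which limits what can be told of any single one, and reads without molecular identifiers are not independent molecules.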

Other observations

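Of the antisense clusters in the library lists, 14 of 30, 17 of 27 and 62 of 98 had a consensus counterpart, and the others had none. Of those with none, the cluster with most reads was in T1 replicate 3 opposite an intron of srh-283, a chemoreceptor gene of the srh class, with 86 reads and 34 conversions over 26 nt, and it was the only 1 of the 18 leading library clusters with no consensus cluster. In T1/V1 replicate 1 a cluster of 2 reads opposite an intron of F59D12.2 overlapped a sense cluster of 4 reads. In T1 replicate 3 the cluster of 137 reads beside tmem-231 overlapped another antisense cluster of 2 reads on the other strand, beside T26A8.4.

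On their own strand, 68 of the 324 consensus clusters lay in the flank of another gene, 56 of them in a downstream flank, with 825 of the 5968 reads. By chromosome there were 58 clusters on I, 59 on II, 58 on III, 60 on IV, 59 on V and 30 on X. The X chromosome held 9.26% of the antisense clusters and 12.6% of the other nuclear ones, with no test made.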
